A study of Apis mellifera with 4 samples.

Results

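AmCyp302A1 and AmCyp305D1 are 2 of the 49 cytochrome P450 genes, and 2 of the 313 genes in all, on an oligonucleotide array of honey bee (Apis mellifera) chemosensory genes. They were chosen by their normalized log2 drone over worker ratios, as P450s outside the CYP6 family that were higher in drone than in worker antennae on every array. The drone over worker values below are therefore a description, with no test. The same condition was met by 2 further genes of the 27 P450s outside CYP6, AmCyp303A1 and AmCyp335A1, which are given for comparison.

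P450s are haem enzymes that add oxygen to small molecules. In insect antennae they are known for breaking down odorants and foreign compounds, and other members of the superfamily make or destroy hormones. CYP302A1 belongs to the mitochondrial P450s and is known from Drosophila melanogaster, where the gene is called disembodied, as one of the hydroxylases of a chain that turns dietary sterols into ecdysone, the moulting hormone. CYP305 enzymes belong to the CYP2 clan, a group that also holds several hormone enzymes, and no role is assigned to AmCyp305D1 here.

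Each of 4 arrays compared 1 pool of drone antennae (mature males, per the design text) with 1 pool of worker antennae (females). The bees were taken as they passed the entrance of the hive, and a pool combined 50 sets of antennae, taken whole. Each pool was a collection of its own, so an array is 1 biological replicate of pooled animals. No treatment was applied, and strain and age in days are not given in the sources used here. Per the label fields, arrays 1 and 3 carried drone cDNA in Cy3, and arrays 2 and 4 carried it in Cy5. A pool is a mixture of all antennal cells, so fewer cells of a type and less RNA per cell cannot be told apart.

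Library quality was looked at through the whole array. The median signal above local background ran from 42 to 573.5 in the drone channels and from 105.5 to 643 in the worker channels, with array 2 the dimmest. Turned to drone over worker, the 6 pairs of arrays correlated across the 313 genes, which are not independent replicates, at r between 0.39 and 0.78. The protocol texts give other dyes for arrays 2, 3 and 4. Those dyes would put the lowest r at -0.775, so the label fields, which give the even swap of the design text, were used. Of the antennal markers, the co-receptor AmOr002, the membrane protein AmSNMP and the binding proteins AmOBP01 and AmOBP02 exceeded the negative controls on 4 of 4 arrays in both sexes, by the threshold without oligo 4 explained below. Of the eye markers, AmLop2 did so on 0 arrays in either sex. AmLop1 did so on 2 worker arrays, AmBLop on 1 drone array and AmUVop on 1 worker array. A further opsin, AmPteropsin, did so on 1 worker array. Against all controls, oligo 4 included, AmOBP01 passed on 4 arrays in both sexes. By that threshold AmOr002 passed on 4 drone and 2 worker arrays, AmSNMP on 2 and 3, AmOBP02 on 1 and 4, and the opsins on none.

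AmCyp302A1, printed in 2 spots per array, gave signal above local background in both sexes. Its drone signal above local background, as the mean of both spots in scanner units, was 1058 on array 1, 230 on array 2, 959 on array 3 and 436 on array 4. Its worker signal was 471, 194, 634.5 and 586 in the same order. Drone was thus brighter than worker on arrays 1, 2 and 3 and dimmer on array 4, and over all arrays the ranges of the sexes overlapped.

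The dyes and the brightness of the arrays differ, so ratios were compared after loess, which centres each array's log2 ratios on 0 at each brightness. Before loess the log2 drone over worker ratio of AmCyp302A1 was 1.02, 0.24, 0.57 and -0.19 on arrays 1 to 4. After loess it was 0.57, 0.60, 0.72 and 0.75. The mean after loess was 0.66 ± 0.09 (SD, n = 4), a 1.58-fold higher ratio in drone. Loess moved the ratio toward worker by 0.45 on array 1 and toward drone by 0.35, 0.15 and 0.93 on arrays 2, 3 and 4. On array 4 the median unnormalized ratio of all genes was -1.15, so the sign of AmCyp302A1 there is the sign relative to the other genes of the array, not that of the raw signals. Centred without loess, AmCyp302A1 on array 4 had 0.96 by the median of all genes, 0.40 by the P450s and -1.50 by the housekeeping genes. Without loess its sign there thus depended on the reference. The housekeeping genes themselves had a median of 1.33 on that array before loess and 0.13 after it.

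After loess the 4 values of AmCyp302A1, which also chose the gene, lay close together. Only 7 of 313 genes had a smaller SD over the arrays, against a median SD of 0.41. This closeness depended on the processing. Without loess the SD of AmCyp302A1 was 0.07 under P450 centring and 0.26 under median centring. It was 0.51 without normalization and 1.22 under housekeeping centring. After loess the log2 ratios of its 2 spots differed by 0.07 to 0.08 on each array, where the median gene differed by 0.13 to 0.17. Before loess they lay further apart on array 4, at -0.40 and 0.02.

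AmCyp305D1 was dim in worker on every array. Its drone signal was 724 on array 1, 140 on array 2, 655.5 on array 3 and 563 on array 4. Its worker signal was 74.5, 43, 278.5 and 347. Within each array drone was brighter, also before normalization, and across arrays the ranges of the sexes overlapped, with array 2 dim throughout.

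Before loess the log2 ratio of AmCyp305D1 was 2.33, 1.07, 0.75 and 0.98 on arrays 1 to 4, above 0 on all of them. After loess it was 1.51, 1.53, 0.90 and 2.24, with a mean of 1.55 ± 0.55 (SD, n = 4). The antilog of that mean is 2.92. The low value on array 3 came with a faulty spot. Its first spot had a signal of 18 in drone and 13 in worker and carried the quality code -50, while the second spot had 1293 and 544. Without spots of that code array 3 gave 1.36, and the mean was 1.66 ± 0.40 (SD, n = 4). The high value on array 4 came with the largest correction, since loess moved the ratio there by 1.27 toward drone.

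**Figure D1:**
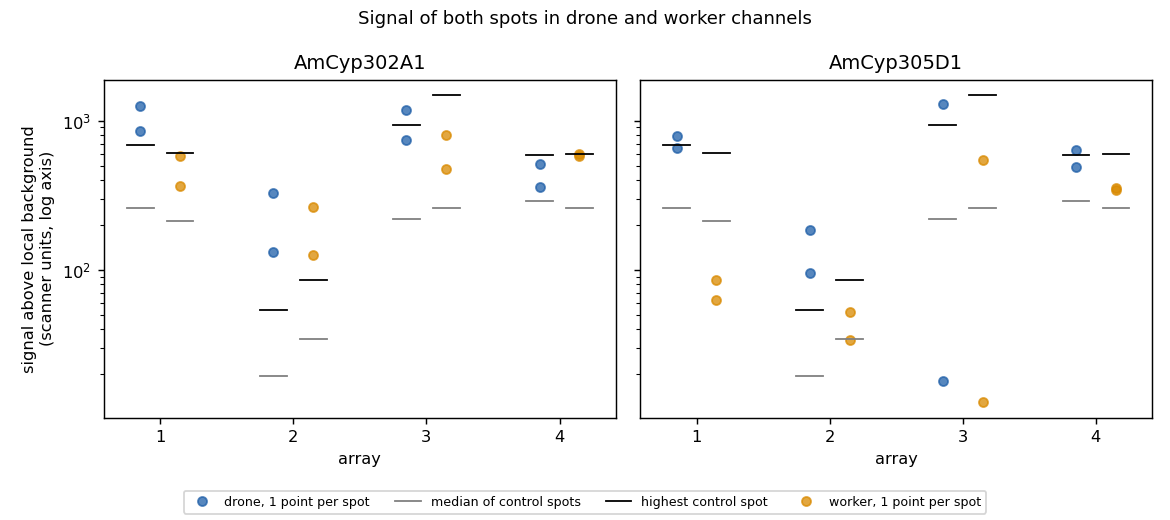
Signal above local background in scanner units (log axis) of both spots of AmCyp302A1 and AmCyp305D1 on arrays 1 to 4, drone in blue and worker in orange. Grey and black bars are the median and the highest of the 14 negative control spots other than oligo 4 in the same channel. AmCyp305D1 in worker stays below the highest control spot on all 4 arrays, and 1 pair of points on array 3 (18 and 13) is the spot with the quality code.

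**Figure D2:**
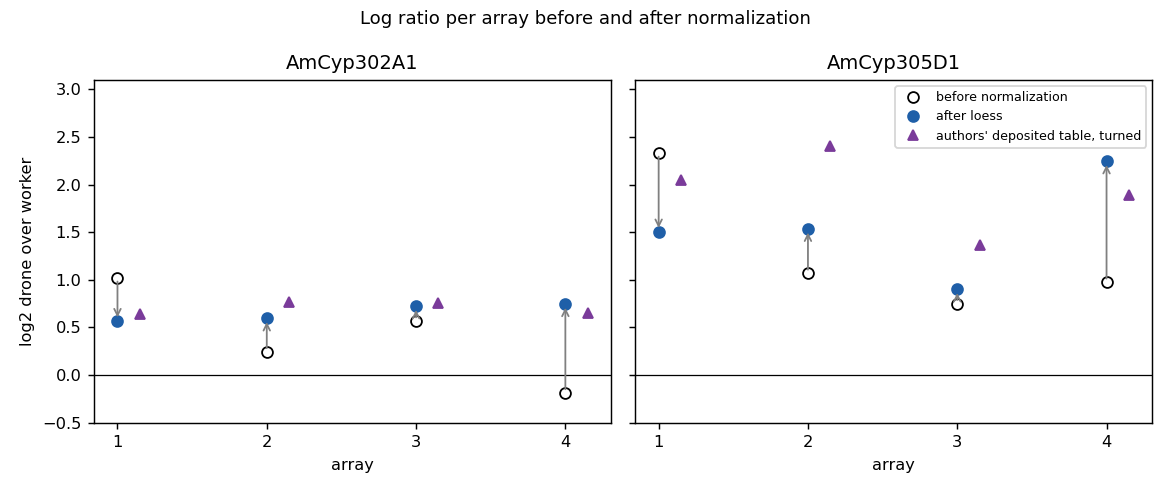
Log2 drone over worker of AmCyp302A1 and AmCyp305D1 on each array, before normalization (open circles), after loess (filled circles, joined by arrows) and in the authors' deposited table turned to drone over worker (triangles). AmCyp302A1 on array 4 moves from -0.19 to 0.75, and all other points lie above 0.

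The array carries 8 negative control oligonucleotides in 16 spots, which show how much signal a probe without a target can have. Against the mean plus 2 SD of all 16 spots, neither gene was above the controls in any channel of any array. By that threshold 8.95% of the 313 genes were above the controls in drone and 8.31% in worker on at least 3 arrays, because oligo 4 was bright throughout, with 1510 to 10564 units. With oligo 4 left out the shares were 28.8% and 31%. AmCyp302A1 was then above the controls in drone on arrays 1 and 2 and in worker on arrays 2 and 4. AmCyp305D1 was above them in drone on arrays 1 and 2 and in worker on none. Its array 3 drone signal of 655.5 took in the spot with the quality code. The other spot there, at 1293, was above the drone threshold of 974.

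The control spots can also be counted one by one. The drone signal of AmCyp302A1 exceeded all 14 control spots other than oligo 4 on arrays 1, 2 and 3 and 12 of them on array 4. Its worker signal exceeded 12, 14, 10 and 13. The drone signal of AmCyp305D1 exceeded 14, 14, 11 and 13 of the 14 spots, and its worker signal 2, 9, 8 and 10. The array 3 counts took in the spot with the quality code. The other spot there had 1293 in drone, above the highest control spot of 935. In worker it had 544, below the highest control spot of 1483. The worker signal of AmCyp305D1 thus lay among the control spots on every array, which does not show that the transcript is absent from worker antennae.

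A worker level that is not above the controls has only an upper limit. Levels per channel were taken from the loess ratios and quantile-normalized mean intensities. On that log2 scale AmCyp305D1 had means of 9.02 ± 0.69 in drone and 7.47 ± 0.22 in worker (SD, n = 4), and the lowest worker level above the controls averaged 8.67. The mean drone level was thus 1.28-fold that limit, in place of the 2.92 of the measured ratio. By the mean of both spots drone itself was above the controls only on arrays 1 and 2. Its level on array 3, 8.08, lay below the averaged limit, so 1.28 is not a lower bound that holds on each array. The levels on array 3, and so the means and the 1.28, took in the spot with the quality code.

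AmCyp302A1 had mean levels of 9.40 ± 0.26 in drone and 8.74 ± 0.34 in worker (SD, n = 4), the measured ratio of 1.58. Both of its channels were above the controls together only on array 2. With the limit in place of lower worker levels the ratio was 1.26.

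The dye orientations can be set side by side, as a description, since the same 4 ratios chose the genes. AmCyp302A1 had a mean of 0.65 with drone in Cy3 and 0.67 with drone in Cy5. AmCyp305D1 had 1.20 with drone in Cy3 and 1.89 with drone in Cy5, with its lowest ratio on array 3 and its highest on array 4. The pools of arrays 3 and 4, whose labels share the number 007, gave means of 0.73 for AmCyp302A1 and 1.57 for AmCyp305D1 on their own. Both the 1.20 and the 1.57 of AmCyp305D1 took in the spot of array 3 with the quality code. Without that spot the array 3 ratio was 1.36 in place of 0.90. Both means would then be higher, and the gap between the dye orientations smaller.

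The authors' deposited table of log2 ratios offers a second processing of the same spots. A comparison with the scanner ratios showed its values to be worker over drone, and after turning they correlated with the loess ratios across genes at 0.98, 0.91, 0.94 and 0.98. In the authors' deposited table AmCyp302A1 had 0.64, 0.77, 0.75 and 0.65 on arrays 1 to 4. AmCyp305D1 had 2.04, 2.41, 1.37 and 1.90 there, with no value for the coded spot of array 3. The table thus put AmCyp302A1 close to the loess values and AmCyp305D1 higher on arrays 1 and 2 and lower on array 4. On array 3 the loess value of 0.90 for AmCyp305D1 took in the coded spot. Without that spot it was 1.36, close to the 1.37 of the table. How the table was centred is not given in the sources used here.

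**Figure D3:**
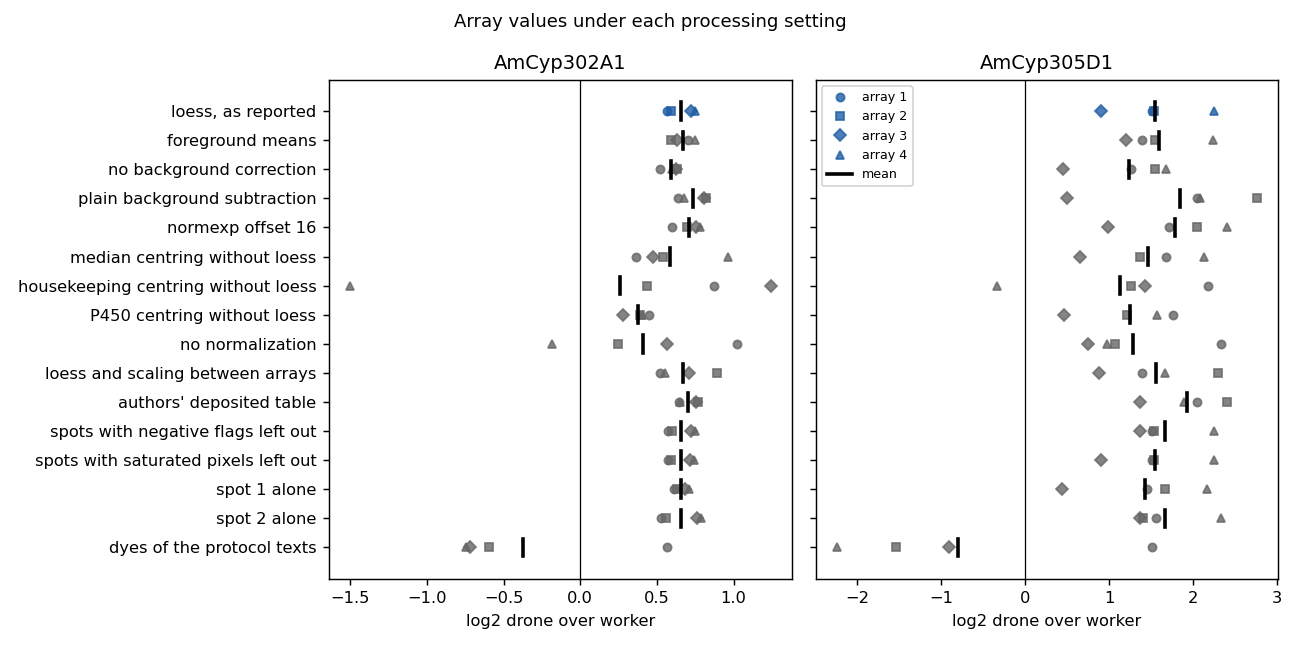
Log2 drone over worker of AmCyp302A1 and AmCyp305D1 on each array (symbols) with the mean (bar) under 16 processing settings, the reported one in blue. With the dyes of the label fields, array 4 falls below 0 for AmCyp302A1 without normalization (-0.19) and under housekeeping centring (-1.50), and for AmCyp305D1 under housekeeping centring (-0.34).

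Among the 47 other P450s, 2 were called higher in drone and 4 higher in worker at a limma adjusted p under 0.05, against 4.47% and 7.35% of all 313 genes. AmCyp302A1 and AmCyp305D1 were left out of this count, since the same contrast chose them. The drone genes were AmCyp006AS04 (log2 0.73 ± 0.15, SE, adjusted p = 0.0254) and AmCyp006AS05 (0.61 ± 0.15, adjusted p = 0.0443), both of the CYP6 family known for acting on foreign compounds. The worker genes were AmCyp006BE1 (log2 -4.45 ± 0.18, adjusted p = 3.08e-05), AmCyp335B3 (-1.37 ± 0.23, adjusted p = 0.00991), AmCyp335B1 (-1.13 ± 0.15, adjusted p = 0.00400) and AmCyp006AS14 (-1.02 ± 0.24, adjusted p = 0.0359).

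These counts depended on the processing. Median centring, P450 centring, housekeeping centring and no normalization, all without loess, each gave 0 drone and 1 worker call among the 47 other P450s in place of 2 and 4. Without array 1, 2, 3 or 4 the worker count was 2, 2, 3 and 6. The drone count was at most 1, 0, 1 and 2, since AmCyp302A1 and AmCyp305D1 could be in it. AmCyp006BE1 was called under each of these settings, and AmCyp006AS05 under none of them.

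None of the other ecdysteroid P450s was above 0 on all 4 arrays after loess. AmCyp302A1 was chosen for that trait and only 15% of the 313 genes met it, so the contrast is not a result about the chain. The ecdysteroid list held 6 genes: the 5 whose relatives in Drosophila melanogaster build the hormone, and AmCyp018A1, whose relative inactivates it. Of the 5 genes other than AmCyp302A1, 0 were called in either direction in limma, and 0 had an unadjusted p under 0.05. Of the 311 genes other than AmCyp302A1 and AmCyp305D1, 12 were called in drone and 23 in worker. Of all 313 genes, 68 had an unadjusted p under 0.05. At those shares few of 5 genes would pass, so nothing is read from the 0. The median log2 ratio was 0.23 with AmCyp302A1 and 0.08 for the 5 others, against 0.01 for all 313 genes, and it turned to -0.11 under housekeeping centring, where all genes had -0.25. The list's medians on arrays 1 to 4 were -0.21, 0.19, -0.01 and 0.43, so they had no common sign.

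In the order of the chain, AmCyp307B1, related to an enzyme of its early steps, had log2 ratios of -0.48, 0.03, -0.01 and 0.12 on arrays 1 to 4, with a mean of -0.09 ± 0.17 (SE, limma adjusted p = 0.875). AmCyp306A1, whose relative phantom acts just before disembodied, had 0.16, 0.28, -0.11 and 1.18, with a mean of 0.38 ± 0.24 (adjusted p = 0.458). Its mean rested largely on array 4.

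AmCyp315A1, whose relative shadow makes ecdysone, had 0.05, 0.10, 0.29 and -0.14, with a mean of 0.08 ± 0.16 (adjusted p = 0.881). AmCyp314A1, whose relative shade turns ecdysone into the active hormone, had -0.53, 0.97, -0.02 and 1.14, with a mean of 0.39 ± 0.31 (adjusted p = 0.568). Both high values of AmCyp314A1 were on the arrays with drone in Cy5, and its dye coefficient was 0.66 ± 0.19 (SE, limma adjusted p = 0.107), where 0.319% of all genes passed. AmCyp018A1, the inactivating enzyme, leaned the other way with -1.27, -0.49, -0.53 and 0.10 and a mean of -0.55 ± 0.24 (adjusted p = 0.247). Without array 4, its only array above 0, AmCyp018A1 passed as higher in worker (log2 -0.76, limma adjusted p = 0.0463). It passed in only this 1 of 21 alternatives, where 29 genes in all were called in worker in place of 23.

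Of these 6 genes AmCyp302A1 was above 0 on 4 of 4 arrays, as its choice required. Over the array 15% of the 313 genes were above 0 on all 4 arrays after loess and 17.6% below 0. Without normalization 6.39% were above 0 on all 4, AmCyp305D1 among them and AmCyp302A1 not.

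**Figure D4:**
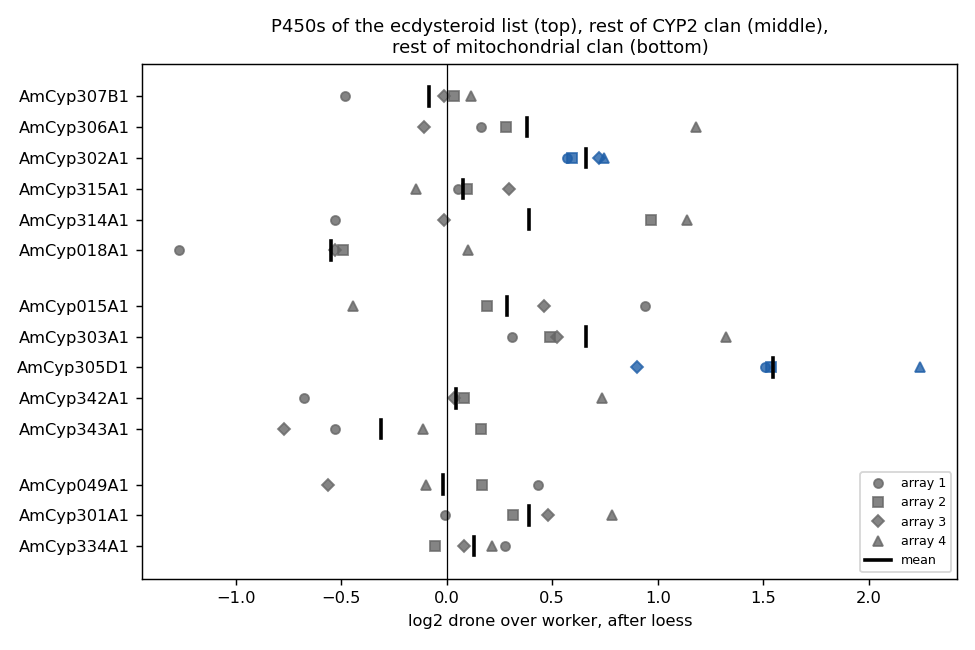
Log2 drone over worker after loess on each array (symbols) with the mean (bar), for the ecdysteroid list, the rest of the CYP2 clan and the rest of the mitochondrial clan. AmCyp302A1 and AmCyp305D1, in blue, lie right of 0 on every array, as does AmCyp303A1, and the 4 points of AmCyp302A1 span 0.57 to 0.75.

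The clans of both enzymes were compared in the same way. The mitochondrial clan had 6 genes on the array. Of the 5 other than AmCyp302A1, 0 were called and 0 had an unadjusted limma p under 0.05, and their median was 0.13. Over the array 12 of the 311 genes other than both enzymes were called in drone and 23 in worker. Of all 313 genes, 68 had such an unadjusted p. At those shares few of 5 genes would pass, so nothing is read from the 0. AmCyp301A1, known from Drosophila melanogaster for a role in cuticle formation, had -0.01, 0.31, 0.48 and 0.78 on arrays 1 to 4 (mean 0.39 ± 0.19, SE, limma adjusted p = 0.293). It lay just outside the condition of a higher drone level on every array, by the -0.01 of array 1. AmCyp334A1 was next, with a lowest value of -0.06 and a mean of 0.13 ± 0.16 (adjusted p = 0.765). AmCyp049A1 had a mean of -0.02 ± 0.21 (adjusted p = 0.992).

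The CYP2 clan had 8 genes. Of the 7 other than AmCyp305D1, 0 were called and 1 had an unadjusted limma p under 0.05, and their median was 0.04. At the shares over the array given above few of 7 genes would pass, so nothing is read from these counts. AmCyp303A1, known from Drosophila melanogaster for the development of sensory bristles, had the same mean ratio as AmCyp302A1, 0.66, and was above 0 on all 4 arrays. Its values of 0.31, 0.49, 0.52 and 1.32 spread over a wider range, and it was not called (SE 0.21, limma adjusted p = 0.116). With a dye coefficient in the fit AmCyp303A1 passed (limma adjusted p = 0.0390). It passed in only this 1 of 21 alternatives, where 20 genes in all were called in drone in place of 14. AmCyp335A1, outside both clans, met the condition by the smallest margin, with 0.04 on array 1 and a mean of 0.26 ± 0.18 (adjusted p = 0.509).

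Of the remaining CYP2 clan genes, AmCyp015A1, named as the family that completes juvenile hormone in cockroaches, had 0.29 ± 0.24 (limma adjusted p = 0.617). AmCyp342A1 had 0.04 ± 0.25 (adjusted p = 0.958) and AmCyp343A1 -0.31 ± 0.20 (adjusted p = 0.465). Each of these 3 had values of both signs over the arrays.

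The genes whose 4 array ratios lay nearest to those of each enzyme were found by the root mean square difference of the log2 ratios over the 4 arrays. For AmCyp302A1 these were AmCyp006AS04 at 0.13, AmCyp006AS05 at 0.13, the G-protein subunit AmGpAsOlf at 0.20, the odorant receptor AmOr021 at 0.21 and the odorant binding protein AmOBP07 at 0.25. The nearest pair, both CYP6AS enzymes, had means of 0.73 and 0.61 beside the 0.66 of AmCyp302A1. For AmCyp305D1 they were the glutathione S-transferase AmGST1 at 0.41, the lipocalin AmLip1 at 0.53, the receptors AmOr078 at 0.57 and AmOr064 at 0.71, and the tetraspanin AmTspan01 at 0.72. AmGST1 had 1.92, 1.52, 0.51 and 1.66 on arrays 1 to 4, with its lowest value on array 3 like AmCyp305D1. The array 3 value of AmCyp305D1 used here took in the coded spot. Without that spot it was 1.36, still its lowest. These differences are a description over 4 arrays. Without loess the neighbours were others: 0 of the 5 nearest genes of AmCyp302A1 and 1 of those of AmCyp305D1 were the same under median centring or without normalization.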

How the data were processed

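Per the labels' protocols, cDNA was made from 20 µg of RNA of each pool with amino-allyl nucleotides, to which the dyes were then coupled. The intensity values are the authors' deposited scanner output, per the file headers the foreground and local background of each spot at 635 nm (Cy5) and 532 nm (Cy3), not normalized. The deposited files also give the percent of saturated pixels per spot and a quality score, -75 for absent and -50 for not found. A further deposited table holds log2 ratios of unstated centring.

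limma 3.58.1 in R 4.3.3 was used, with normexp (offset 50) on medians, loess with controls at weight 0, absent spots left out, and 2 spots averaged. Ratios were fitted as a mean of 4 arrays with Benjamini-Hochberg adjustment over 313 genes, two-sided. The code was also run on simulated data. These had less spread between arrays than the real data and a constant dye shift, so they do not show the error rate here. The number of arrays limits the precision. Neither enzyme had a saturated pixel. P450 families were read from gene names, and the 2 names matched 0 symbols of RefSeq Amel_HAv3.1.

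The genes, lists and tests were chosen with earlier results of these data known. Named genes were the ecdysteroid, CYP2 and mitochondrial lists, called P450s, the 5 nearest genes, the P450s at the edge of the choice and the housekeeping genes.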

Additional observations from a re-analysis of the deposited data

Results flagged for a closer look

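Among 33 sets of 4 array values looked at, 2 had an array far from the other three, where chance alone marks about 1 in 20. AmCyp335A1, which met the condition of a higher drone level on every array, had 0.71 on array 3 and 0.04 to 0.15 on the others. AmCytoActin, a housekeeping gene, had 1.28 on array 4 and -0.52 to -0.23 on the others, and it is 1 of the 4 genes on which housekeeping centring rests. The unnormalized median of the 4 housekeeping genes was 1.33 on array 4, against 0.14, -0.19 and -0.67 on arrays 1, 2 and 3. After loess that median was 0.13 on array 4, against -0.13, -0.07 and -0.36 on arrays 1, 2 and 3. Neither AmCyp302A1 nor AmCyp305D1 had such an array.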

How the results depend on the processing

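The mean of AmCyp305D1 stayed above 0 in 21 of 22 alternatives and that of AmCyp302A1 kept its sign and moved by less than the replicate SD in 18 of 22. With 1 array left out the means ran from 0.63 to 0.69 for AmCyp302A1 and from 1.31 to 1.76 for AmCyp305D1. Under housekeeping centring, P450 centring and no normalization, all without loess, AmCyp302A1 had 0.26, 0.38 and 0.41, and the median of all genes stood at -0.25, -0.13 and -0.10. With the dyes of the protocol texts AmCyp302A1 had -0.37, AmCyp305D1 -0.79 and the ecdysteroid list a median of -0.23, and under housekeeping centring that list had -0.11. Without oligo 4 among the controls AmCyp302A1 was above them in 4 channels and AmCyp305D1 in 2, by the mean of both spots, in place of 0 and 0.

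The reported fit gave 2 drone and 4 worker calls among the 47 P450s other than AmCyp302A1 and AmCyp305D1. Plain background subtraction gave at most 2 in drone, since these 2 genes could be in that count. Median centring, housekeeping centring, P450 centring and no normalization gave 0 in drone and 1 in worker, the dyes of the protocol texts 0 and 0, and the arrays numbered 007 alone 0 and 1. Leaving out 1 array gave at most 2 in drone, by the same limit, and 2 to 6 in worker. Among genes above all controls there were 0 drone and 1 worker calls, and among genes above the controls other than oligo 4, a filter added after seeing the data, 2 drone calls. Neither enzyme passes either filter, so neither has a value there. In these filters the drone signal of AmCyp305D1 on array 3 took in the spot with the quality code.

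Except under the dyes of the protocol texts, the genes whose sign turned were not called in the reported fit or in the setting that turned them. AmCyp307B1 turned with foreground means (0.032), plain subtraction (0.023), median centring (0.13), the authors' deposited table (0.019), spot 1 alone (0.020), the arrays numbered 007 (0.051) and without array 1 (0.045). AmCyp049A1 turned with foreground means (0.072), no background correction (0.023), plain subtraction (0.46), an offset of 16 (0.0051), median centring (0.092), loess with scaling (0.0053), spot 1 alone (0.057), without array 3 (0.17) and without array 4 (0.012), with a range from -0.17 to 0.17 when 1 array was left out. AmCyp342A1 turned with no background correction (-0.018), housekeeping centring (-0.27), P450 centring (-0.15), no normalization (-0.12), the authors' deposited table (-0.011) and without array 4, with a range from -0.19 to 0.28 when 1 array was left out. AmCyp315A1 turned with foreground means (-0.19), housekeeping centring (-0.15), P450 centring (-0.034) and no normalization (-0.0015). AmCyp306A1 had -0.059 under housekeeping centring and AmCyp343A1 0.088 with spot 2 alone. With the dyes of the protocol texts the log2 means were -0.30 for AmCyp306A1, -0.66 for AmCyp314A1, -0.049 for AmCyp315A1, 0.23 for AmCyp049A1, -0.40 for AmCyp301A1, -0.51 for AmCyp303A1, -0.38 for AmCyp342A1, 0.047 for AmCyp343A1 and -0.23 for AmCyp335A1. There AmCyp006AS04 had -0.32, AmCyp006AS05 -0.30, AmCyp006AS14 0.43, AmCyp006BE1 2.30, AmCyp335B1 0.59 and AmCyp335B3 0.49.

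The cause of these moves was not tested. With 3 arrays the dyes are no longer balanced and the fit is smaller. The array number as a random block could not be fitted, with 3 numbers over 4 arrays. Every value is a ratio within an array, so each fit is paired by array. The signals of both enzymes near the negative controls and the 4 arrays limit the precision.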
